A study of Mus musculus with 4 samples.

Results

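Chromosome 15 of the mouse was followed from its first to its last expressed gene in 4TO7 mammary carcinoma cells, comparing cells from tumors resistant to anti-PD-L1 with cells from control tumors. The members were the chromosome 15 genes averaging 10 or more normalized counts across the 4 libraries, leaving out by name Ly6e, Ly6a, Ly6c1, Myc, Mov10l1 and Csf2rb2, and they numbered 571 of 14238 genes tested on all chromosomes. Of the 1846 chromosome 15 genes in the deposited table, 1269 lay under that minimum and 813 of them had no read in any library. Segments were then chosen by the measured resistant minus control differences themselves: a running median was taken, over 21 neighbouring members, of that difference in log2 normalized counts, less the median of all tested genes (0.00). Any 10 or more successive members with a running value beyond 0.25 in either direction was called a segment.

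Bulk RNA was sequenced from 4TO7 cells (a mouse mammary carcinoma line) freed by enzymatic digestion of tumors grown in BALB/c mice. The resistant group (resistant to immunotherapy) and the control group each held 2 libraries. All 4 samples carry the treatment label untreated, whereas their protocol names anti-PD-L1, an antibody against the checkpoint ligand PD-L1, given in vivo, and the sources used here leave unclear what the control tumors received. No age, engineered allele or further agent is given for either group. The series text calls the 2 libraries of a group biological replicates but ties none to an animal, so p-values measure the spread between these libraries. Libraries held 45666470 to 49592054 counted reads. Of 4 genes listed for carcinoma cells, Krt8, Krt18 and Vim were abundant in every library (Krt8 at 12649 to 21116 normalized counts). Vim is not particular to carcinoma cells. Epcam was low (87.6 and 114 in resistant, 341 and 246 in control libraries). All 6 leukocyte markers stayed under 10 normalized counts in every library, with a summed level of 11.2 and 13.9 in resistant and 11.5 and 15.1 in control libraries, and 2 of 3 endothelial markers did too (summed 12.9 to 23.1). Of 3 fibroblast and mural markers, none was at 0: Pdgfra stood at 5766 to 8504 normalized counts, and Dcn at 163 and 143 in resistant against 763 and 483 in control libraries. The part of such cells in the results was not tested, and in bulk RNA a change in the number of cells of a type and in RNA per cell cannot be told apart.

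Mouse chromosome 15 is acrocentric, so its genes run from the centromere along a single long arm. Its proximal and middle parts carry cytokine receptor genes, translation factors and the surroundings of Myc, and its distal part carries the Ly6 family, the apolipoprotein L family, the beta common cytokine receptor genes, type II keratins and the Hoxc cluster. Neighbouring genes differ in what controls them, so a position-ordered view shows whether a difference is shared by a whole stretch or belongs to single genes. Only RNA was measured here.

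The promoters of 6 members are shown because they come from the 2 segments described below and differ in how their genes behaved: Ank is the second most abundant member of segment 1, Ranbp3l is the member that lay farthest against it, Eif3d opens segment 2, and C1qtnf6, Cyth4 and Card10 lie close together within segment 2 with very different values. Each is the 150 bases before the gene start given by RefSeq on GRCm38.p6, 5′ to 3′ on the gene's strand, and none overlaps an annotated exon. The C1qtnf6 window lies inside the span of that gene in the GENCODE annotation used for positions (chr15:78523346-78531416, minus strand), which starts further upstream. Capitals mark matches on either strand to GGGCGG (the GC box), to CCAAT (the CCAAT box), to TATAAA (the TATA box) or to the ETS-like string GAGGAA, and matches may overlap.
Ank: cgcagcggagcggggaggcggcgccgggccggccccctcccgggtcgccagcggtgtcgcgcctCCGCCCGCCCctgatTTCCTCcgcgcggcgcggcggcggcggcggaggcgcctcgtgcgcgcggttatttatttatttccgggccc
Ranbp3l: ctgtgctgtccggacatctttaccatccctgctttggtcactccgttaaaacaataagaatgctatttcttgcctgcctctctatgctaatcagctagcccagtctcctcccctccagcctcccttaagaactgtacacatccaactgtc
Eif3d: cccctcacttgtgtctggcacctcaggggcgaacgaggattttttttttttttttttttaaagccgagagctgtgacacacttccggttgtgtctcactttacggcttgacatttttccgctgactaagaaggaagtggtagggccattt
C1qtnf6: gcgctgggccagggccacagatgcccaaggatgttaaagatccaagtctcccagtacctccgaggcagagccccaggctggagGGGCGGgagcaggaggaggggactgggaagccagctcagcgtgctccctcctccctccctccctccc
Cyth4: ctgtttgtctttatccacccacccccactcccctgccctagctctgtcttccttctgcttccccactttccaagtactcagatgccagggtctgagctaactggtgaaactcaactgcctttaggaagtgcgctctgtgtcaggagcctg
Card10: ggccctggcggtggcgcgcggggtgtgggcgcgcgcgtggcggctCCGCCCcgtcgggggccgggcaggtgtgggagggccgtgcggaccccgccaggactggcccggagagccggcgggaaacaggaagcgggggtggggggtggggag
These windows are chr15:27466527-27466676 (plus strand), chr15:8967799-8967948 (plus), chr15:77970825-77970974 (minus), chr15:78529652-78529801 (minus), chr15:78596897-78597046 (plus) and chr15:78803043-78803192 (minus). They hold 29, 2, 6, 4, 1 and 20 CG dinucleotides in that order. GGGCGG was in 28.6%, CCAAT in 24.5%, TATAAA in 7.58% and GAGGAA in 14.5% of the 32817 windows of this length in the table. A match is a string of letters and not a shown binding site.

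The 571 members lay on the high side in resistant cells. Their median difference was 0.21 on the log2 scale, or 1.15-fold, against 0.00 for all tested genes, and 424 members (74.3%) had a difference above 0, which held for 50.3% of all tested genes. In limma with Benjamini-Hochberg adjustment over all tested genes, 87 members were called higher (15.2%; 5.32% of all tested genes) and 12 lower (2.10%; 4.73% of all tested genes). The same contrast had located the segments, so these counts describe the members and nothing is read from them. Both resistant libraries stood above both controls for 303 members (53.1%, against 28.4% of all tested genes) and below both for 71 (12.4%, against 28.3%). The number called moved with single libraries, among members as over all tested genes. Fewer were called in either direction when a resistant library was left out, and more when a control was. The median over members stayed between 0.20 and 0.23.

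The running median found 2 segments, both higher in resistant cells, and none lower. Segment 1 held 171 members from the gene model Gm7666 to the imprinted noncoding RNA Peg13, over chr15:6653923-73061204 (66.4 Mb, GRCm38), and segment 2 held 38 members from Eif3d to Maff, over chr15:77958998-79359076 (1.40 Mb). Together they held 209 of the 571 members. The running value was 0.246 at Fyb, the last member before segment 1, and 0.251 at Gm7666 inside it. It was 0.2502 at Peg13 and 0.222 at Chrac1 just beyond, 0.164 at Foxred2 and 0.287 at Eif3d at the start of segment 2, and 0.315 at Maff and 0.225 at Tmem184b at its end. The start of segment 1 thus lies on a gradual slope, and the edges move with the window. Across the chromosome the running value reached 0.68 at its highest and -0.03 at its lowest.

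**Figure D1:**
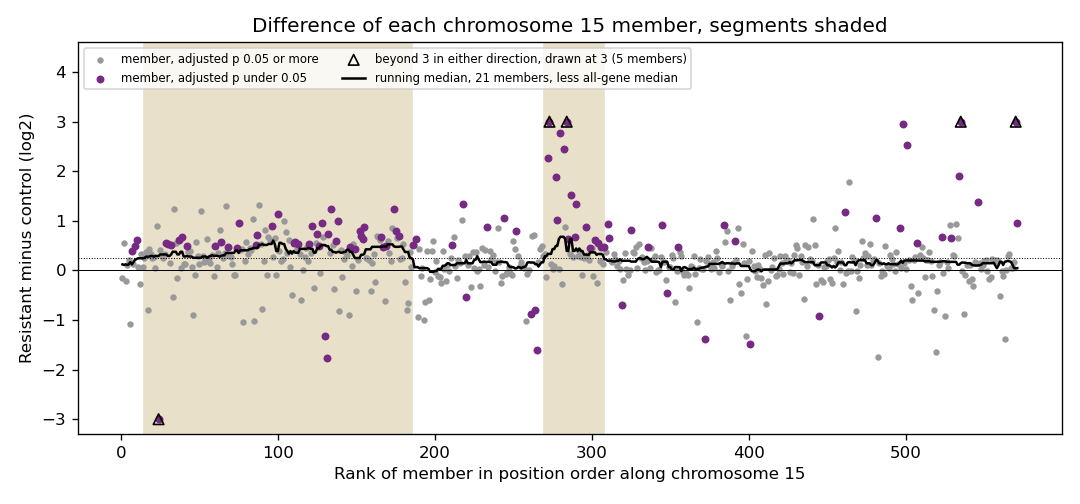
Resistant minus control difference (log2, vertical axis) of each of 571 members by rank in position order (horizontal axis); purple points passed an adjusted p of 0.05 and the line is the running median. The line runs from 0.25 to 0.60 in segment 1 (shaded, left), falls to about 0 between the segments and peaks at 0.68 in segment 2 (shaded, right).

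Segment 1 carried a small difference shared by most of its genes. Its median was 0.36, or 1.28-fold, its middle 50% of members ran from 0.14 to 0.59, and 140 of 171 members lay above 0. Against the mean of the 4 libraries, its members had medians of 0.17 and 0.19 in resistant replicates 1 and 2 and -0.18 and -0.21 in control replicates 1 and 2. The 4 single differences of a resistant from a control library had medians of 0.36 to 0.39. These values are parts of the contrast that chose the segment and are given as a description. Among its 171 members 39 were called higher (22.8%, against 5.32% of all tested genes) and 3 lower (1.75%, against 4.73%), counts from the contrast that chose them. Fewer of them were called higher when a resistant library was left out and more when a control was, as over all tested genes.

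Differences between libraries of the same group had not been used to find the segments. In segment 1 the median of resistant replicate 1 minus 2 was -0.04 and that of control replicate 1 minus 2 was 0.08, against -0.02 and 0.02 for all tested genes. The between-group median of segment 1 was fixed by how the segment was chosen and is not set against them. In segment 2 the within-group medians were -0.07 and 0.18. With 2 libraries against 2, an exact two-sided permutation test cannot go below p = 0.333, so no test of these medians was made. The running median within a group ranged from -0.22 to 0.08 for the resistant pair and from -0.16 to 0.43 for the control pair. Within the control pair it reached 0.43 at Nr4a1, close to the distal keratin genes and outside both segments, and 0.42 inside segment 2, so that at Ncf4 the running value was 0.42 within the control pair and 0.33 between the groups.

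**Figure D2:**
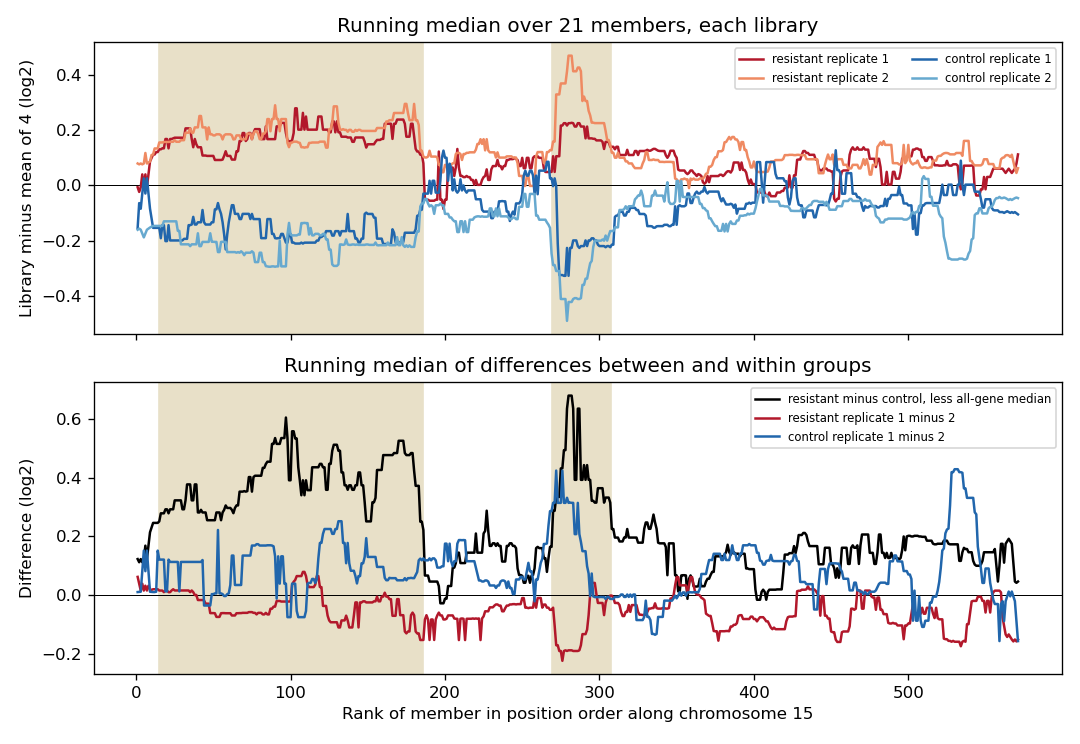
Running medians over 21 members by rank in position order: above, each library minus the mean of the 4 (log2); below, the between-group difference and the 2 within-group differences (log2). Both resistant lines lie above both control lines at 514 of the 571 members, of which 209 are in the shaded segments. Neighbouring windows share genes and the segments were chosen on this contrast, so this count is a description. Taken singly, 53.1% of members had both resistant libraries above both controls, against 28.4% of all tested genes. The control pair differs by up to 0.42 in segment 2 and 0.43 at rank 530.

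Differences varied least among abundant genes, in segment 1 as over all tested genes. Of the 100 members of segment 1 that averaged 1000 or more normalized counts, 93 lay above 0, with a median of 0.39 and an SD over genes of 0.27. All 7684 tested genes of that level had a median of 0.01, an SD of 0.33 and 52.1% above 0. The 39 members of segment 1 under 100 normalized counts had a median of 0.25 and an SD of 1.20, and 26 of them lay above 0. All 3115 tested genes of that level had a median of -0.03, an SD of 1.01 and 48.2% above 0. The segment was chosen on this contrast, so its medians and counts above 0 are a description. Protein-coding genes made up 138 of the 171, with a median of 0.38, and the other 33 had a median of 0.25. Over all members, the 500 protein-coding genes had a median of 0.22, with 391 above 0. The other 71 had a median of -0.09, with 33 above 0, and their median lay below 0 in every stretch but segment 1. Of protein-coding members 87 were called higher and 6 lower, and of the others 0 and 6 (5.32% and 4.73% of all tested genes). Outside the segments the medians of abundant members also lay above 0. They were 0.32 before segment 1 (7 members), 0.15 between the segments (39 members) and 0.16 after segment 2 (165 members), with 29 of 39 and 130 of 165 above 0.

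**Figure D3:**
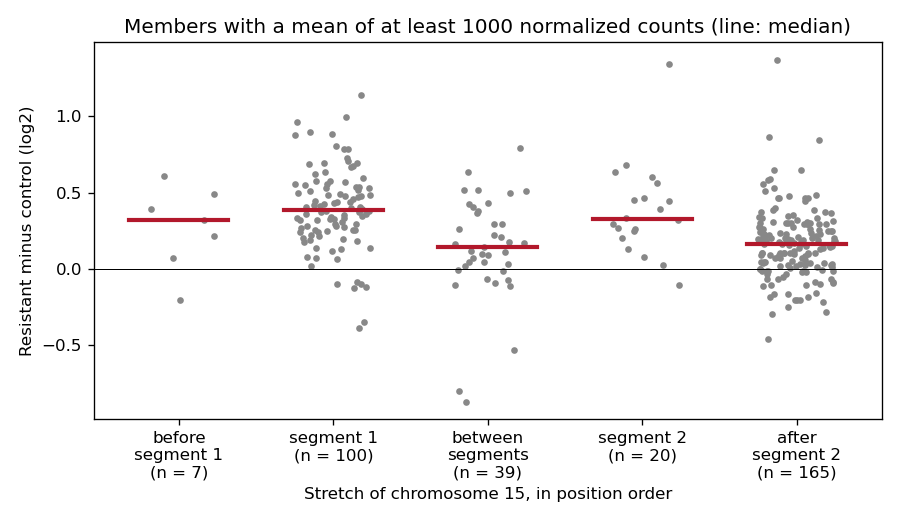
Resistant minus control difference (log2, vertical axis) of each member that averaged 1000 or more normalized counts, by stretch of the chromosome (horizontal axis, number of members below each name), with the median as a line. The medians are 0.32, 0.39, 0.15, 0.33 and 0.16 from left to right.

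By 10 Mb of gene start, abundant members had medians of 0.32 at 0 to 10 Mb (15 members), 0.49 at 10 to 20 Mb (11), 0.20 at 20 to 30 Mb (7), 0.40 at 30 to 40 Mb (27), 0.49 at 40 to 50 Mb (6), 0.38 at 50 to 60 Mb (31) and 0.58 at 60 to 70 Mb (8). From there they were 0.21 at 70 to 80 Mb (75), 0.15 at 80 to 90 Mb (61), 0.16 at 90 to 100 Mb (53) and 0.18 beyond (37). All 11, all 6 and all 8 abundant members at 10 to 20, 40 to 50 and 60 to 70 Mb lay above 0, against 52.1% of all tested genes of that level. Those members are in segment 1, which was chosen on the same contrast, so nothing is read from these counts. Steps between the medians by 10 Mb were not tested.

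Segment 1 held some of the most abundant transcripts of these cells. Pabpc1, the cytoplasmic poly(A)-binding protein (ENSMUSG00000022283.15, chr15:36595661-36609668), had 194383 and 191956 normalized counts in the resistant libraries and 144919 and 146087 in the controls. The groups did not overlap, and the log2 difference of 0.41 ± 0.15 (SE) had an adjusted p of 0.13. Ank, a transporter involved in pyrophosphate export, had 62817 and 77690 in resistant and 69324 and 46909 in control libraries, so that the groups overlapped (0.29 ± 0.21). Dap, a death-associated protein, had 39457 and 41531 against 36573 and 31356, without overlap (0.26 ± 0.13). The ARF GTPase-activating protein gene Asap1 (37967 and 41922 against 28148 and 29108) and the sialyltransferase gene St3gal1 (42270 and 48268 against 31507 and 24753) rose by 0.48 ± 0.12 and 0.69 ± 0.15. Neither call held without resistant replicate 1 or without resistant replicate 2, and that of Asap1 also ended with median centring and with the replicate block. With no filter on low values, 15 of the 21 calls among genes named by rule ended, these 2 included. Only those of Has2, Ccn4, Apol9a, Apol9b, Csf2rb and Cyth4 were kept there.

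The largest rises among members of segment 1 with at least 100 normalized counts were in Ccn4, Has2 and Slc25a32. Ccn4, a secreted matricellular protein known as a Wnt-induced gene, had 462 and 505 normalized counts in resistant and 212 and 195 in control libraries (1.24 ± 0.17, limma adjusted p = 0.0057). Has2, which makes hyaluronan, had 557 and 619 against 256 and 242 (1.23 ± 0.16, limma adjusted p = 0.00477). Slc25a32, the mitochondrial folate carrier, had 2466 and 2063 against 915 and 1139 (1.14 ± 0.15, limma adjusted p = 0.00538). In all 3 the lower resistant library lay well above the higher control. The calls of Ccn4 and Has2 ended without resistant replicate 2, and that of Slc25a32 ended with no filter on low values. Exons of Has2 overlap an antisense transcript, Has2os, and unstranded counting could not separate their reads.

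Several genes with differences well above the segment's median of 0.36 are enzymes or regulators with known roles; except for Sqle they were picked after their values were seen. Sqle, the squalene epoxidase of sterol synthesis, had 9048 and 7847 against 4940 and 4236 normalized counts (0.88 ± 0.13), a call that ended without resistant replicate 1. Azin1, the antizyme inhibitor that sustains polyamine synthesis, had 14674 and 13501 against 6797 and 8426 (0.90 ± 0.13). Deptor, which binds and inhibits mTOR complexes, had 3681 and 3906 against 2066 and 1827 (0.96 ± 0.12), and Tbc1d31 had 15236 and 14869 against 7446 and 7614 (1.00 ± 0.10). All 4 were called higher, and in each the groups were far apart relative to the spread within them. Rictor, the subunit that defines the other mTOR complex, stood near the segment's median with 3882 and 3752 against 2618 and 3274 (0.38 ± 0.13) and was not called.

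31 members of segment 1 lay below 0. Osmr, the oncostatin M receptor subunit (ENSMUSG00000022146.12, chr15:6813577-6874969), had 510 and 603 normalized counts in resistant and 1255 and 748 in control libraries, a difference of -0.80 ± 0.24 that was not called (limma adjusted p = 0.0814). Its neighbour Rictor lay on the other side of 0. Sybu, a syntaxin-binding transport adaptor, had 119 and 86.9 against 131 and 182 (-0.59 ± 0.27), and the pseudogene model Gm18787 had 65.2 and 95.5 against 263 and 150 and was called lower (-1.32 ± 0.33). Exons of Gm18787 overlap those of Gm49257 on the same strand, so these 2 called genes can share reads; both calls ended on omitting one or the other resistant library. The third called lower was Ranbp3l, a nuclear transport protein picked after its values were seen, with 2.04 and 0 normalized counts in resistant and 104 and 66.6 in control libraries. Ranbp3l passed the minimum level only through the control libraries, since its resistant values lay under 10. Trps1, a GATA-type transcriptional repressor expressed in luminal mammary cells, stood at 12500 and 14846 against 15674 and 11530 (0.02 ± 0.16), with overlapping groups.

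Segment 2 was short, and in it large rises of single genes stood next to genes with differences near 0. Its median was 0.37, and 9 of its 38 members (23.7%) had a difference of at least 1, against 3.53% of all tested genes. These values describe members chosen on the same contrast. Mfng and Lgals2, which are among the 9, passed the minimum level only through the resistant libraries, since their controls lay under 10 normalized counts. Among the 38 members 16 were called higher by limma (42.1%, against 5.32% of all tested genes) and none lower (against 4.73%; none at an unadjusted p under 0.05, and none by voom), 33 lay above 0, and both resistant libraries stood above both controls for 26 (68.4%, against 28.4% of all tested genes), again from the contrast that chose the segment. Here too fewer were called higher when a resistant library was left out and more when a control was, as over all tested genes.

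Among members of segment 2 averaging at least 100 normalized counts, the 3 highest differences were those of Csf2rb, Cyth4 and Tmprss6. Csf2rb, the beta common receptor subunit for IL-3, IL-5 and GM-CSF (ENSMUSG00000071713.6, chr15:78325752-78353847), had 704 and 917 normalized counts in resistant and 102 and 75.6 in control libraries, a rise of 3.18 ± 0.23 (limma adjusted p = 0.000486). Its close paralog Csf2rb2, left out of the members, lies beside it and reads can be shared between them. Cyth4, a cytohesin that activates ARF GTPases (ENSMUSG00000018008.8, chr15:78597047-78622019), had 1169 and 1437 against 321 and 175 (2.44 ± 0.28). Il2rb, a receptor subunit for IL-2 and IL-15, had 656 and 749 against 385 and 310 (1.02 ± 0.17), a call that ended on omitting one or the other resistant library. Of genes picked after their values were seen, Rac2, a small GTPase of blood cells, had 93.8 and 83.7 against 14.4 and 10.1 (2.78 ± 0.33), and Ncf4, a subunit of the phagocyte NADPH oxidase, had 125 and 125 against 31.7 and 20.2 (2.26 ± 0.31). In all of them the lowest resistant library lay well above the highest control. Mfng, a glycosyltransferase that modifies Notch, was close to the detection limit in controls, at 0 and 2.02 against 14.3 and 29.0. Beside these values Ptprc, the leukocyte common antigen gene, had 0 and 2.15 normalized counts in resistant and 1.92 and 1.01 in control libraries, and no leukocyte marker reached 10.

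Genes between them, of which Mpst and Tst were picked after their values were seen, had much smaller differences. Mpst, a sulfurtransferase that lies between Csf2rb and Tmprss6, had 2526 and 2403 normalized counts in resistant and 2435 and 2408 in control libraries, a difference of 0.02 ± 0.11 whose sign changed with median centring and with voom. Its neighbour Tst, the related enzyme rhodanese, had 497 and 508 against 489 and 433 (0.13 ± 0.15). Tmprss6, a membrane serine protease known from liver iron control, had 566 and 822 against 237 and 141 (1.89 ± 0.29). C1qtnf6, which lies between Il2rb and Rac2, had 766 and 862 against 971 and 662 (0.02 ± 0.20), with overlapping groups. Of the 13 members from Ncf4 to Mfng (chr15:78244801-78773475), a run chosen after its values were seen, 7 were called higher and the median was 1.02. In the other 25 members of the segment the median was 0.32 and 9 were called higher. Of all tested genes 5.32% were called higher. The run was cut by its values from a segment chosen on the same contrast, so nothing is read from these counts and medians.

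**Figure D4:**
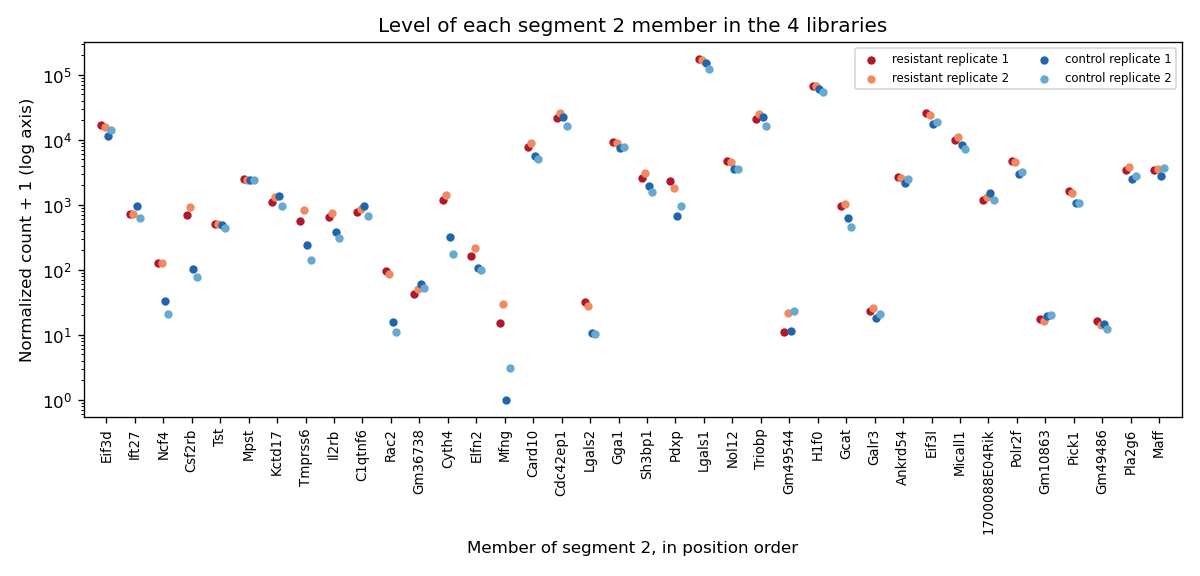
Level of each of the 38 members of segment 2 in position order (horizontal axis) in the 4 libraries, as normalized count plus 1 on a log axis. Resistant points (red and orange) lie far above control points (blue) at Ncf4, Csf2rb, Tmprss6, Rac2, Cyth4 and Mfng, and all 4 lie together at Tst and Mpst.

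The abundant genes of segment 2 had smaller differences. Lgals1, the secreted galectin-1, had 172704 and 167775 normalized counts in resistant and 154413 and 124113 in control libraries (0.30 ± 0.17), and the linker histone gene H1f0 had 67701 and 67483 against 59991 and 54072 (0.25 ± 0.13). Neither was called, though the groups did not overlap in either. Cdc42ep1 (0.32 ± 0.18) and the actin-binding Triobp (0.27 ± 0.17) had overlapping groups. Eif3l, a subunit of the translation initiation factor eIF3, had 25866 and 23837 against 17709 and 18788 and was called (0.44 ± 0.11, limma adjusted p = 0.0457), a call that ended under 7 of 12 alternatives. Card10, a scaffold of NF-kappaB signalling, had 7751 and 8826 against 5664 and 4993 (0.64 ± 0.12) and was called; the call ended on omitting one or the other resistant library.

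Between the segments the running value fell close to 0, and genes known from the interferon response lay below it. Apol9a and Apol9b, interferon-inducible apolipoprotein L genes, had 2597 and 2674, and 2403 and 2582, normalized counts in resistant libraries. In the controls they had 4677 and 4968, and 4495 and 4164. Apol9a fell by 0.87 ± 0.10 and Apol9b by 0.80 ± 0.11 on the log2 scale, and since they are near-identical copies, reads can be split between them. Parp10, an ADP-ribosyltransferase, fell by 0.53 ± 0.11 from 3432 and 3015 to 2261 and 2202, while its exons overlap those of Plec on the same strand; its call ended on omitting one or the other resistant library and with the replicate block. The calls of Apol9a held in every alternative run, and that of Apol9b ended without resistant replicate 1. Myh9, non-muscle myosin heavy chain, had 55147 and 64372 against 40901 and 47563 in the same stretch (0.43 ± 0.14), not called. The 84 members between the segments had a median of 0.11, and 7 were called higher (8.33%, against 5.32% of all tested genes) and 4 lower (4.76%, against 4.73%).

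The last 264 members, from Tmem184b to Pde1b, had a median of 0.15, and 22 were called higher (8.33%, against 5.32% of all tested genes) and 5 lower (1.89%, against 4.73%). The simple-epithelial keratin genes Krt8 (15137 and 17275 against 21116 and 12649) and Krt18 (30056 and 35171 against 42630 and 27813) had overlapping groups and differences of -0.02 ± 0.22 and -0.08 ± 0.20. The control libraries alone spanned the resistant values, and leaving out control replicate 1 or 2 gave 0.35 (limma adjusted p = 0.0234) and -0.38 (limma adjusted p = 0.0116) for Krt8, calls in opposite directions. Krt7 was low and rose, at 90.7 and 135 against 34.6 and 24.2 (1.90 ± 0.33), a call that ended without resistant replicate 2. Exons of Krt7 overlap those of Gm671 and exons of Krt8 those of Gm36026, so their counts can hold shared reads. Itgb7, the integrin beta 7 subunit, picked after its values were seen, had 20459 and 19935 against 7293 and 8334 (1.37 ± 0.11). Celsr1, a cadherin of planar cell polarity also picked afterwards, fell by 1.49 ± 0.19 on the log2 scale, from 857 and 636 to 265 and 260. The Hoxc cluster was nearly silent: of 9 listed genes only Hoxc6 was a member, at 9.17 and 13.9 against 24.98 and 38.3 (-1.37 ± 0.42, not called).

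The gene lists by role are described by their counts, and differences between lists were not tested. Over all tested genes 5.32% were called higher, 4.73% lower and 50.3% lay above 0, and of all members 15.2%, 2.10% and 74.3%. Of 18 translation and ribosome genes all lay above 0, with a median of 0.31, and 4 were called higher: the ribosomal protein gene Rpl37, the ribosome assembly factor Brix1, Eif3e and Eif3l. Rpl37 had 11388 and 10135 against 7423 and 7878 normalized counts, and Eif3e, in the middle of segment 1, had 15943 and 13400 against 9245 and 10630. All 17 mitochondrial genes lay above 0 as well, with a median of 0.26 and 2 called. These were the mitochondrial ribosomal protein Mrpl13, with 8614 and 7741 against 5381 and 4515 (0.73 ± 0.12), and the complex I subunit Ndufb9, with 8432 and 6867 against 4283 and 5198 (0.69 ± 0.14). Both calls ended without resistant replicate 1, and exons of Mrpl13 overlap Mtbp on the opposite strand and those of Ndufb9 overlap Gm49356 on the same strand.

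Of 19 cell cycle and genome maintenance genes, 17 lay above 0 (median 0.18), and 2 were called higher, the checkpoint clamp subunit Rad1 and the end-joining factor Xrcc6. The call of Rad1 ended under 8 of 12 alternatives and that of Xrcc6 under 6, median centring and voom among them in both. The cohesin subunit Rad21 had 22929 and 22493 against 18443 and 21696 (0.18 ± 0.12) and the chromatin ATPase Atad2 had 12046 and 11077 against 9045 and 10794 (0.23 ± 0.12), and neither was called although the groups did not overlap in either. Of 25 transcription and chromatin genes 20 lay above 0, the median was 0.08, and limma called none (2 were higher and 1 lower at an unadjusted p under 0.05, and voom called none), against 5.32% called higher among all tested genes. The stress factor gene Atf4 had 33042 and 29015 against 26158 and 24974 (0.28 ± 0.12), Cbx6 of Polycomb had 8696 and 10411 against 9894 and 8890, and the sterol regulator Srebf2 had 7686 and 7176 against 7918 and 7862 (-0.09 ± 0.10).

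Of 14 genes for matrix and secreted proteins, 11 lay above 0 with a median of 0.62, and 4 were called higher: Has2, Ccn4, the lysophosphatidic acid-producing enzyme Enpp2 and the growth factor Pdgfb. Sema5a, a transmembrane semaphorin, had 4229 and 5354 against 3435 and 2146 (0.81 ± 0.22, not called), and Wnt7b, a Wnt ligand, had 9346 and 11371 against 7287 and 4397 (0.86 ± 0.22, not called). Of 9 interferon and innate immunity genes, 2 lay above 0 (median -0.27), with Card10 called higher and Parp10, Apol9a and Apol9b lower. Of 5 cytokine receptor genes, Csf2rb and Il2rb were called higher, and the other 3 lay below 0, among them Osmr and the growth hormone receptor gene Ghr (3246 and 3108 against 3467 and 3866, -0.20 ± 0.11). Of 21 adhesion and cytoskeleton genes, 4 were called higher (Ptk2, Rac2, Lima1 and Itgb7) and 1 lower (Celsr1), with a median of 0.27. Of 11 lipid and amino acid genes, Sqle, Gcat, Pla2g6 and Adsl were called higher and none lower, and of 4 keratins Krt7 was called. The calls of Pla2g6 and Adsl each ended under 6 of 12 alternatives, median centring and voom included, and those of Rpl37 and Eif3e under 5, voom included. Genes named in the last 3 paragraphs only because they were called were picked after their values were seen, and of the 22 called genes picked in this way across the report 13 lost the call without resistant replicate 1, 14 without resistant replicate 2, 16 with no filter and 5 with the replicate block. Ranbp3l, Deptor, Tbc1d31, Rac2, Celsr1 and Itgb7 kept it in every alternative that tested them.

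Gene features that the rule had not used are given as values, with no test. Members of segment 1 had a median gene length of 34.9 kb against 12.4 kb in segment 2, 8.39 kb between the segments, 18.97 kb after segment 2 and 19.97 kb for all tested genes. Their median level was 1711 normalized counts, against 1242 in segment 2 and 1218 for all tested genes. Promoter windows were found for 293 of the 571 members. They covered 41 of 171 members in segment 1, 25 of 38 in segment 2 and 206 of 264 after segment 2. Median GC content of these windows was 62.7% in segment 1, 58.7% in segment 2 and 66.0% after segment 2. GGGCGG was in 46.3%, 48.0% and 63.1% of them. Between the segments (9 windows of 84 members) both values were lower than in either segment, at 52% GC and 33.3% with GGGCGG. Before segment 1 (12 windows of 14 members) GC content was 61%, and GGGCGG was more frequent than in either segment. In segment 2, the windows of Cyth4, C1qtnf6, Eif3d and Card10 printed above hold 1, 4, 6 and 20 CG. Their genes had differences of 2.44, 0.02, 0.34 and 0.64 in that order. These features are a description of the members with an entry.

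The same procedure on the other chromosomes places these values. The median of the chromosome 15 members was the highest of 20 chromosomes, above chromosomes 6 (0.18) and 9 (0.18), and the lowest was that of chromosome 19 (-0.23). The chromosome 15 members were chosen on this contrast, and only there were genes left out by name, so the rank is a description. Segments held 36.6% of chromosome 15 members, 34.1% of 493 genes on chromosome 19 (all lower in resistant cells) and 30.2% of genes on chromosome 17. They held 22.7% on chromosome X, 16.5% on chromosome 6 and 14.7% on chromosome 2. The shares were 14.4% of 728 on chromosome 3, 12.2% on chromosome 16 and 11.6% of 807 on chromosome 9. In resistant cells the segments were all lower on chromosomes 3 and 16 and all higher on chromosomes X, 6, 2 and 9. Of 2 segments on chromosome 17, 1 was higher. The longest segment of chromosome 15, with 171 members, was exceeded by a segment of 202 genes on chromosome 17. These differences between chromosomes were not tested.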

How the data were processed

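The deposited table holds log2 values, which the authors derived from STAR alignments to mm10 and DESeq2, per the submitters' processing notes; versions, annotation and strand setting are not given in the sources used here. From the values, each is the log2 of 1 plus a size-factor-scaled count: after undoing that, 100% of values were whole numbers of reads within a tolerance of 0.01 reads. Columns were matched to samples by title and groups taken from source labels. Of 55385 genes, 55144 were joined to GENCODE M21 (GRCm38, which is mm10) by identifier without version. Positions are gene starts and ends.

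Genes averaging 10 or more normalized counts (2 to the value, minus 1) were tested with limma 3.58.1 in R 4.3.3 (lmFit, eBayes with trend, no block; Benjamini-Hochberg over 14238 genes, threshold 0.05). Running medians used 21 members, cut short at the ends. Differences are resistant minus control on the log2 scale ± SE (n = 2 per group) and understate changes of low genes. Steps were tested on simulated data. Intervals were not given; the number of libraries limits precision.

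The members, lists and segments were chosen with earlier results of these data known. Named genes were each segment's first and last members and their outer neighbours, its 5 most abundant members, its 3 highest and 3 lowest differences at 100 or more normalized counts, and up to 4 most abundant members of each of 11 role lists; others are said to be picked afterwards. Alternatives were pseudocount, filter, scaling, block, moderation, window, threshold, member set and leaving out each library. Limma voom on the recovered reads, an alternative chosen after seeing the data, called 645 genes higher and 771 lower, against 758 and 674.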

Additional observations from a re-analysis of the deposited data

How the results depend on the processing

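The running median gave 2 segments under 7 of 16 alternatives and more under the others, and the number of calls depended on the libraries. Calls among members ranged from 18 to 182 higher and 3 to 49 lower when 1 library was left out, where the spread comes from fewer libraries, and were 12 higher and 5 lower with no filter on low values, where 26782 genes were tested. The median over members was 0.17 with no filter, 0.17 with libraries centred on their medians, 0.16 with limma voom on recovered reads and 0.20 to 0.23 with 1 library left out. The median of segment 1 was 0.33 with centred libraries, 0.34 with quantile normalization, 0.32 with voom and 0.35 to 0.38 with 1 library left out. That of segment 2 was 0.42 with a mean of at least 50, 0.33 with voom and 0.37 to 0.43 with 1 library left out. Segments numbered 13 with no filter, 4 with quantile normalization, 2 to 4 with 1 library left out, 5 with a window of 11 members, 5 (318 members) at a threshold of 0.15 and 4 (126 members) at 0.35; a stretch of low running values splits segment 1 in some of them. Every segment under the window, threshold and member-set alternatives was higher in resistant cells.

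Within groups, resistant replicate 1 minus 2 in segment 1 was -0.012 with quantile normalization and -0.00412 with voom. Control replicate 1 minus 2 in segment 1 was 0.039 with a mean of at least 50, 0.046 with quantile normalization and 0.051 with voom, and in segment 2 it was 0.14 with quantile normalization. Same-numbered libraries deviated in opposite ways (r = -0.36 across 14238 genes, which are not independent), and the labels tie no number to a shared animal or batch; what lies behind this correlation was not tested. With the replicate block, limma called 66 of 571 members higher and 10 lower, against 628 and 585 of 14238 tested genes. Of 66 genes named by rule 21 were called, and 3 (Apol9a, Csf2rb and Cyth4) kept the call under all 12 alternatives. Of the 21, 15 lost it with no filter and 5 with the block. Calls were lost when a resistant library was left out but not when a control was. Without a control the spread comes from the resistant pair alone, whose log2 SD over members was 0.29, against 0.46 for the control pair. More of all tested genes were then called, so keeping a call there says little.

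Signs changed only for genes that were not called, among those named by rule or picked afterwards. Trps1, C1qtnf6, Cbx6 and Mpst were at -0.013, -0.012, -0.011 and -0.00734 with centred libraries and at -0.021, -0.025, -0.019 and -0.015 with voom, and Trps1 at -0.032 with quantile normalization. With 1 library left out the ranges were -0.41 to 0.57 for Fyb, -0.22 to 0.72 for Gm7666, -0.20 to 0.24 for Trps1, -0.021 to 0.16 for Peg13, -0.090 to 0.67 for Foxred2, -0.44 to 0.18 for Ift27, -0.26 to 0.30 for C1qtnf6, -0.30 to 0.086 for 1700088E04Rik, -0.073 to 0.33 for Maff, -0.11 to 0.15 for Cbx6, -0.38 to 0.35 for Krt8, -0.39 to 0.23 for Krt18, -0.35 to 0.018 for Igfbp6, -0.0062 to 0.33 for Rarg and -0.011 to 0.061 for Mpst. The cause of these changes was not tested.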
